A study of Mus musculus with 16 samples.

Results

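CARD9 deficiency was examined here in brain microglia of mice without amyloid transgenes, as 4 libraries labelled Card9-/- against 4 libraries labelled WT, out of 16 libraries in the series. The members are the 8 libraries that carry these genotype labels, and they are described across all genes counted. All 8 came from CD11b+ cells of mice at 20 weeks of age, isolated from perfused brains with magnetic beads after the meninges and choroid plexus had been taken off. The study's methods say female of the mice that were bought to be crossed, and do not state the sex of the mice sequenced. WT mice were Card9+/+ and carried no 5xFAD transgenes, and Card9-/- mice had a germline deletion of Card9 and likewise carried none. The other 8 libraries came from 5xFAD mice and Card9-/-5xFAD mice of the same age, 4 of each, a transgenic model of amyloid deposition in which a neuronal promoter drives the transgenes. These are used below as a second pair of genotypes. They also entered the same fit, so all 16 libraries shared the filter on low counts, the scaling and the estimate of spread. The Card9-/- and C57BL/6J lines were bought and then crossed, and the deletion was in every cell of the animal, so the design does not separate a change within microglia from one that starts in other cells.

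CARD9 is an adaptor protein of myeloid cells. Receptors such as C-type lectins, Fc receptors and TREM2 signal through the kinase Syk, protein kinase C delta then acts on CARD9, and CARD9 joins BCL10 and MALT1 in a complex that activates NF-kB and so drives cytokine genes. In the brain, microglia are the main cells that carry these receptors, and CD11b is a surface integrin that microglia share with monocytes, neutrophils, border macrophages and natural killer (NK) cells. The comparison asks what the loss of CARD9 does to microglial transcription when no amyloid is present.

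Between 5346747 and 11206884 reads per WT library and between 3229322 and 19333325 reads per Card9-/- library were counted on genes. Expression is given below as CPM, the reads of a gene per 1000000 reads of its library after TMM scaling, a method that corrects for a few highly expressed genes. WT replicate 1 and Card9-/- replicate 4 stood apart from the other 6 libraries. Mitochondrial genes took 1.74% and 2.36% of their reads against 0.545% to 0.899% in the others, and ribosomal protein genes took 4.09% and 4.92% against 0.914% to 1.84%. They scored -33.5 and -72.3 on the first principal component (PC) of the 8 libraries, which held 86.5% of the variance, while the others scored between 8.38 and 29.3. On this component the genotypes overlapped (exact two-sided permutation test over 70 assignments of libraries, p = 1). On the next one, which held 5.18% of the variance, Card9-/- libraries scored 1.86 to 11.2 and WT libraries -17.6 to 2.05, so that they overlapped only through WT replicate 4 and Card9-/- replicate 3 (exact permutation p = 0.0571, adjusted p = 0.114). The smallest p that 4 against 4 libraries allow is 0.0286, which becomes 0.0571 when adjusted over both components with the other at 1, so the design could not bring this component alone under 0.05. All 8 microglial markers were expressed in each library, and their summed level was 12270 to 28850 CPM in WT and 13370 to 29000 CPM in Card9-/- libraries.

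**Figure D1:**
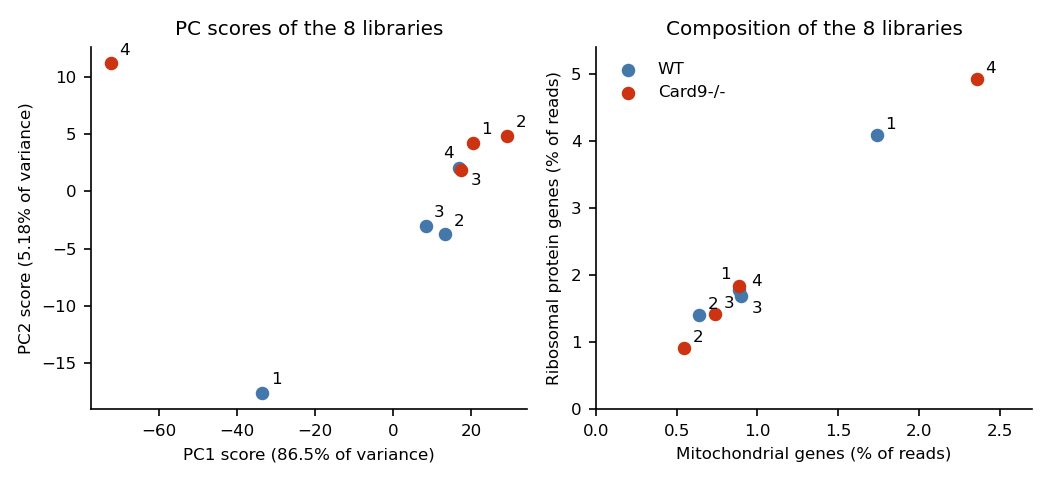
The left panel plots the scores of the 8 libraries on PC1 and PC2, and the right panel plots the percentage of reads on mitochondrial genes against the percentage on ribosomal protein genes, with the replicate number beside each point. WT replicate 1 and Card9-/- replicate 4 lie apart in both panels, and the remaining 3 libraries of each genotype lie close together.

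The targeted gene, Card9 (chromosome 2, 26352176 to 26360918, minus strand, GRCm38), was counted in every library. In WT replicates 1 to 4 it had 13.6, 51.3, 43.2 and 39.3 CPM, and in the libraries labelled Card9-/- it had 31.6, 34.8, 33.2 and 16.7 CPM, from 263, 842, 560 and 51 reads. The groups overlapped, and the log2 fold change was -0.34 (SE 0.445, edgeR FDR = 0.970). The counts cover the whole gene, and the deleted part is not given in the sources used here, so they neither check the genotype nor go against it. The annotation also places Gm13562 on the opposite strand within Card9, and the strand setting of the counting is not stated. Genotypes below are therefore those of the labels.

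Across the genes that passed the filter on low counts, 0 of 14513 differed between Card9-/- and WT microglia at a false discovery rate (FDR) under 0.1 in edgeR's quasi-likelihood test, which is 0% of the genes tested. The lowest FDR was 0.2001, for Ly6i, followed by 0.4828 for Hebp1 and 0.6954 for Thnsl1, and the other genes named below had an FDR of 0.970 or more. Without adjustment, 597 genes (4.11%) had p under 0.05. Of these, 199 (1.37%) were higher and 398 (2.74%) were lower in Card9-/- libraries. The CPM ranges of the 4 Card9-/- and the 4 WT libraries did not overlap for 386 genes (2.66%), 154 of them higher (1.06%) and 232 lower (1.6%). Which direction held more of the genes at p under 0.05 depended on single libraries, since 402 were higher and 215 lower without WT replicate 1, and 304 were higher and 652 lower without Card9-/- replicate 4. The median log2 fold change of all genes tested was 0.11, and the gene lists below are read against that value.

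DESeq2 on the 8 libraries alone, the tool named in the study's methods, called 8 genes at an adjusted p under 0.1 (0.0287% of 27850 genes). Ly6i, Hebp1, Cd300e and Tppp3 were lower, and Cacnb2, Prkcq, Thnsl1 and Ppfia4 were higher in Card9-/- libraries. With weights that let single libraries count less (voom with quality weights), 4195 genes (28.9%) passed an adjusted p of 0.1, and there WT replicate 1 and Card9-/- replicate 4 had weights of 0.193 and 0.184 against 0.751 to 4.43 for the others. Leaving out both of these libraries, edgeR called 1 gene, Hebp1, at a log2 fold change of -3.41 (FDR = 0.0901). Hebp1 was called in 7 and Ly6i in 6 of 20 alternative fits, and each kept a negative fold change in every one of those in which it was tested.

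Ly6i (chromosome 15, 74979534 to 74983430) encodes a small surface protein of the Ly6 family, whose members are anchored to the membrane of leukocytes by a lipid. It had 20.1, 18.7, 17.0 and 20.97 CPM in WT replicates 1 to 4 and 2.04, 2.69, 3.85 and 1.31 CPM in the Card9-/- replicates. Every Card9-/- library lay far below the lowest WT library, the 2 divergent libraries included, and the log2 fold change was -2.89 (SE 0.472, edgeR FDR = 0.2001). Neighbours in the same gene cluster, Ly6a and Ly6c2, were also lower without adjustment, at log2 fold changes of -1.70 (SE 0.585) and -1.15 (SE 0.519). Without WT replicate 1 these values were -0.95 and -0.72. Their ranges overlapped, since Ly6a was at 17.1 to 100 CPM in WT and 6.25 to 23.5 CPM in Card9-/- libraries. Of 9 Ly6 genes listed, 7 passed the filter. Of these, 3 were lower at p under 0.05, Ly6i itself included, beside 2.74% of all genes, and none was higher. The list was chosen for Ly6i, so its counts are no separate support for that gene. The median of the list was -1.15, and -0.72 without WT replicate 1. Ly6 genes are similar in sequence, and reads that fit several of them may have been split or dropped in the counting.

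Hebp1 (chromosome 6, 135137522 to 135198022) encodes a heme-binding protein of the cytosol that is also the precursor of a peptide that attracts leukocytes. It had 26.9, 61.1, 69.7 and 48.5 CPM in WT and 4.803, 5.54, 6.46 and 15.1 CPM in Card9-/- libraries. The genotypes did not overlap, and Card9-/- replicate 4 was the highest of its group. The log2 fold change was -2.74 (SE 0.515, edgeR FDR = 0.4828). Fam234b and 3 other annotated genes overlap the Hebp1 span.

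Cd300e, an activating receptor of monocytes, had 5.11, 24.9, 21.3 and 32.0 CPM in WT and 5.52, 4.47, 4.15 and 4.91 CPM in Card9-/- libraries. WT replicate 1 was as low as the Card9-/- libraries, so the ranges overlapped. The log2 fold change was -2.13 (SE 0.545), and it was -2.46 without WT replicate 1. Tppp3, which codes for a protein that binds microtubules and is abundant in ciliated ependymal cells, had 11.3, 11.7, 10.3 and 17.1 CPM in WT and 4.32, 3.89, 3.85 and 7.197 CPM in Card9-/- libraries. Its ranges did not overlap, at a log2 fold change of -1.41 (SE 0.48).

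Among the 12 genes of lowest p in the lower direction were also Hacd1, Rxrg, Glrx5, S1pr5, Klra1 and Gzma. Hacd1, an enzyme of very long chain fatty acid synthesis, was at 9.31 to 15.7 CPM in WT and 2.94 to 5.81 CPM in Card9-/- libraries, a log2 fold change of -1.35 (SE 0.325). Glrx5, which carries iron-sulfur clusters in mitochondria, was at 74.1 to 101 CPM against 28.5 to 62.3 CPM, a log2 fold change of -1.12 (SE 0.31). Rxrg, a retinoid X receptor, was at 1.93 to 5.41 CPM against 0.480 to 1.64 CPM. The ranges of these 3 genes did not overlap. S1pr5, a sphingosine 1-phosphate receptor that NK cells use to leave tissues, was at 5.81 to 14.5 CPM against 2.29 to 4.08 CPM, and Klra1, a lectin-like receptor of NK cells, was at 1.60 to 4.02 CPM against 0.120 to 1.31 CPM. Both were also apart between the genotypes. Gzma, a granzyme of cytotoxic lymphocytes, was at 23.9 to 138 CPM in WT and 20.3 to 28.8 CPM in Card9-/- libraries and overlapped through WT replicate 4. The remaining 3 were the long noncoding RNA D5Ertd605e and the pseudogenes 5430437J10Rik and Gm16437, with log2 fold changes of -0.998, -1.85 and -1.15. Of these, 5430437J10Rik had 14 to 23 reads in the WT and 3 to 10 reads in the Card9-/- libraries. It passed the filter on low counts through the WT libraries, where it was high. It stays in the counts below but is read no further.

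In the higher direction, the gene of lowest p was Thnsl1 (chromosome 2, 21205724 to 21215009), a relative of bacterial threonine synthase. It had 3.52, 3.94, 1.76 and 3.32 CPM in WT and 9.97, 10.7, 12.1 and 9.81 CPM in Card9-/- libraries. All 4 Card9-/- libraries lay above all WT libraries by a wide gap, and the log2 fold change was 1.76 (SE 0.357, edgeR FDR = 0.6954). Cacnb2 (chromosome 2, 14603088 to 14987908), a beta subunit of voltage-gated calcium channels, had 2.82, 1.797, 2.32 and 2.35 CPM in WT and 7.81, 8.52, 7.94 and 8.18 CPM in Card9-/- libraries. Its mean was 2.32 ± 0.417 CPM in WT and 8.11 ± 0.314 CPM in Card9-/- libraries (SD, n = 4 each), and its log2 fold change was 1.81 (SE 0.404). A number of unnamed gene models overlap Cacnb2 on both strands.

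Prkcq (chromosome 2, 11172108 to 11301222) encodes protein kinase C theta, a kinase best known from T cell receptor signalling. It had 4.40, 3.34, 3.31 and 2.14 CPM in WT and 13.8, 14.8, 12.5 and 8.83 CPM in Card9-/- libraries, with no overlap, and the log2 fold change was 1.93 (SE 0.511). Ppfia4 (chromosome 1, 134296783 to 134332928), a liprin that scaffolds synaptic and adhesion proteins, showed another pattern. In WT it had 8.45, 9.67, 8.27 and 9.63 CPM. Card9-/- replicates 2 and 3 had 205 and 226 CPM, whereas replicates 1 and 4 had 9.85 and 11.8 CPM, just above the WT range. The log2 fold change of 3.65 (SE 0.889) was thus carried by 2 of 4 libraries.

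**Figure D2:**
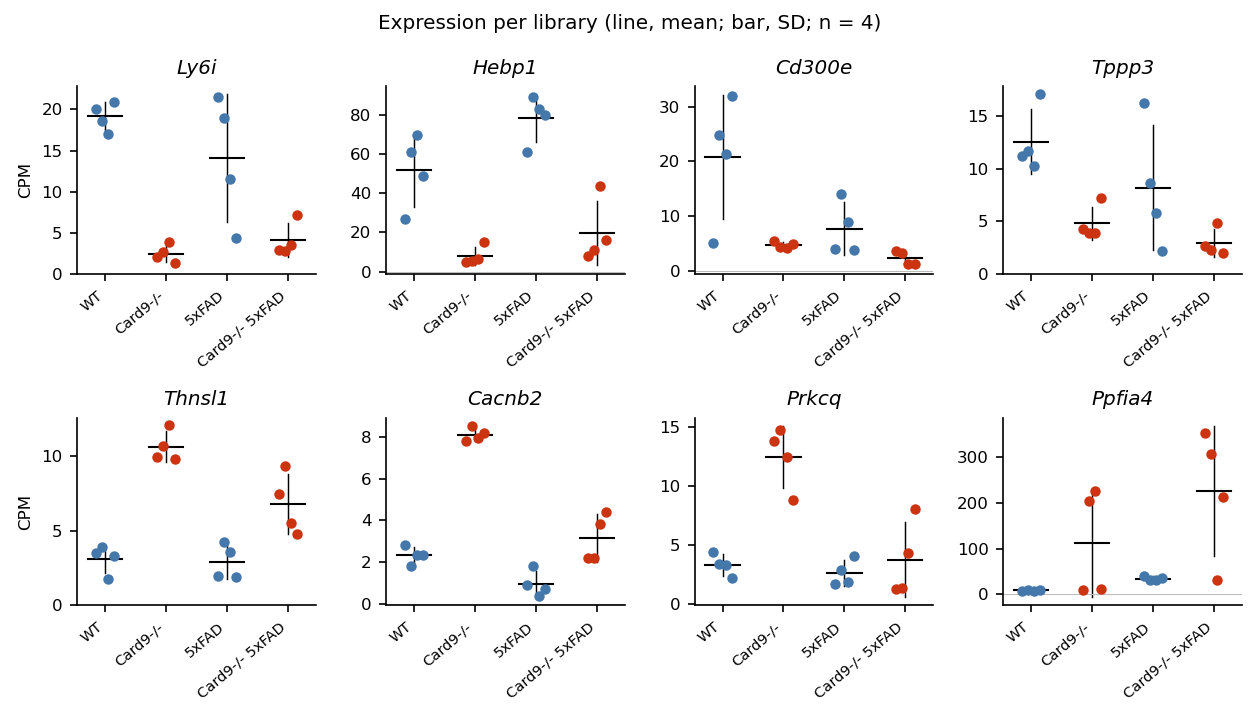
Each panel plots the CPM of 1 gene in the 4 libraries of each of 4 genotypes, with the mean as a horizontal line and the SD as a vertical bar. Card9-/- libraries lie below WT for Ly6i, Hebp1 and Tppp3 and above WT for Thnsl1, Cacnb2 and Prkcq, while Cd300e overlaps through 1 WT library and Ppfia4 is high in 2 Card9-/- libraries and in 3 of 4 Card9-/-5xFAD libraries.

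The other genes among the 12 of lowest p in the higher direction were expressed at low to moderate levels. Asns, asparagine synthetase, was at 1.06 to 2.43 CPM in WT and 3.12 to 5.89 CPM in Card9-/- libraries, a log2 fold change of 1.38 (SE 0.373). Mrc2, a collagen receptor, was at 8.47 to 18.1 CPM against 23.3 to 48.4 CPM, a log2 fold change of 1.45 (SE 0.407). Tlr1, which pairs with TLR2 to sense bacterial lipopeptides, was at 21.3 to 39.6 CPM against 46.1 to 73.5 CPM, a log2 fold change of 1.04 (SE 0.312). Nfya, a subunit of the transcription factor NF-Y, was at 8.64 to 12.02 CPM against 13.2 to 19.2 CPM. Dpy19l3, a mannosyltransferase, was at 4.75 to 7.92 CPM against 10.1 to 16.3 CPM, and Dennd2c, an activator of Rab proteins, was at 18.8 to 26.3 CPM against 35.8 to 43.6 CPM. 2900026A02Rik was at 2.14 to 5.81 CPM against 6.28 to 11.7 CPM. None of these ranges overlapped. A930002C04Rik had 0 to 1 reads in the WT and 1 to 14 reads in the Card9-/- libraries. It passed the filter on low counts through the 5xFAD and Card9-/-5xFAD libraries, at 4.85 to 5.76 and 4.68 to 5.61 CPM, and is read no further.

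A second set of genes was high in 1 library. Of 26 genes with p under 0.05 and a log2 fold change above 2.5, 24 were above the WT range in Card9-/- replicate 4 and in no other Card9-/- library. They comprised 14 pseudogenes and 4 mitochondrial genes. The mitochondrial gene mt-Co2, a subunit of cytochrome c oxidase, had 473 CPM in that library against 1.32 to 3.85 CPM in the other Card9-/- libraries and 3.77 to 8.98 CPM in WT. With WT replicate 1 and Card9-/- replicate 4 both left out, 77 of the 199 higher genes and 76 of the 398 lower genes still had p under 0.05.

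The comparison of Card9-/-5xFAD with 5xFAD libraries shares no library with the one above, but both came from the same fit and shared its estimate of spread. There, too, 0 of 14513 genes (0%) passed an FDR of 0.1 in edgeR, and 366 (2.52%) had an unadjusted p under 0.05. Of the 12 genes of lowest p that were lower without transgenes, 12 were also lower in Card9-/-5xFAD than in 5xFAD libraries. At p under 0.05 there were 10 of them, 5430437J10Rik included. Of the 12 that were higher, 10 were higher again, 3 at p under 0.05. Over all genes tested, 10894 (75.1%) had the same sign in both pairs, so a shared sign alone carries little. Among the 398 lower and 199 higher genes, 389 (97.7%) and 154 (77.4%) had the same sign, and 61 and 23 also had p under 0.05 in 5xFAD.

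Hebp1 was the clearest of the genes that were apart in both pairs. It was at 61.1 to 88.8 CPM in 5xFAD and 8.09 to 43.6 CPM in Card9-/-5xFAD libraries, a log2 fold change of -1.99 (SE 0.496). Thnsl1 was at 1.91 to 4.25 against 4.81 to 9.36 CPM, and Cacnb2 was at 0.360 to 1.78 against 2.17 to 4.41 CPM, log2 fold changes of 1.23 (SE 0.359) and 1.68 (SE 0.433). Rxrg, S1pr5, Glrx5 and Gzmb were likewise lower with no overlap in both pairs. In all, 27 genes were apart in the same direction in both pairs and 0 of the 386 were apart in opposite directions. In the 5xFAD pair as a whole 275 genes (1.89%) were apart, 141 of them higher (0.972%) and 134 lower (0.923%). The 27 include 5430437J10Rik, which passed the filter through the WT libraries. Ly6i, at 4.36 to 21.5 against 2.74 to 7.21 CPM, overlapped in the 5xFAD pair, as did Tppp3, Ppfia4 and Prkcq. Cd300e overlapped without transgenes and was apart with them, at 3.81 to 13.98 against 1.20 to 3.65 CPM.

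Whether the Card9 difference itself differed between mice with and without transgenes was tested as an interaction. At an FDR under 0.1, 0 genes (0%) passed in edgeR, and 78 (0.537%) had an unadjusted p under 0.05. Prkcq had the log2 fold change 1.93 without and 0.43 (SE 0.525) with transgenes, an interaction of -1.50 (SE 0.726, edgeR FDR = 1). Asns was at 1.38 without and -0.15 (SE 0.372) with transgenes. For Ly6i the 2 differences were -2.89 and -1.84 (SE 0.464), and for Cd300e they were -2.13 and -1.64 (SE 0.556).

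Thnsl1, Cacnb2, Prkcq and Hacd1 lie on chromosome 2, as Card9 does, with starts 5.16, 11.8, 15.2 and 12.3 Mb before the Card9 start. Within 20 Mb of Card9, 293 genes were tested and 18 had p under 0.05 (6.14%), 10 higher and 8 lower, against 4.1% of all genes with a position. On the rest of chromosome 2 the share was 3.65%. Of the 10 higher genes, Gm13456 and Naif1 were set by Card9-/- replicate 4, at 68.4 and 107 CPM. Their log2 fold changes were 0.01 and 0.08 without WT replicate 1 and Card9-/- replicate 4. The share of genes at p under 0.05 was highest between 20 and 10 Mb before Card9, at 15% of 40 genes. It was 9.86% of 71 genes in the next 10 Mb and 2.72% of 147 genes in the first 10 Mb behind Card9. In the same bins 12.5%, 5.63% and 0.68% of genes did not overlap, against 2.67% of all genes with a position. Over the other bins of 10 Mb these 2 shares ran from 0% to 10.7% and from 0% to 6.25%. The 10.7% was of 28 genes 30 to 20 Mb before Card9, and the 6.25% of 32 genes 70 to 80 Mb behind it. Etl4, Gm37780, Il15ra and Fbh1, which start within 20 Mb before Card9, were also higher at p under 0.05 without transgenes. Etl4, which is linked to notochord and spine development, was at 0.176 to 1.18 CPM in WT and 1.36 to 5.56 CPM in Card9-/- libraries. It had 1 to 11 reads in the WT libraries. Its log2 fold change of 1.66 was 0.89 without WT replicate 1 and Card9-/- replicate 4. Fbh1, a DNA helicase, was at 25.5 to 47.8 CPM in WT and 43.8 to 74.3 CPM in Card9-/- libraries, and Il15ra, the receptor chain that presents IL-15 to NK cells, was at 10.04 to 18.2 CPM against 13.1 to 31.3 CPM. These 2 overlapped without transgenes, and Il15ra was apart in the 5xFAD pair, at 9.94 to 18.0 against 20.4 to 32.2 CPM. Gm37780, a short gene model, was apart in both pairs, at 2.23 to 4.07 CPM against 4.92 to 6.33 CPM without transgenes. How the genome around the deleted gene differs between the lines is not given in the sources used here, and its part in these values was not tested.

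**Figure D3:**
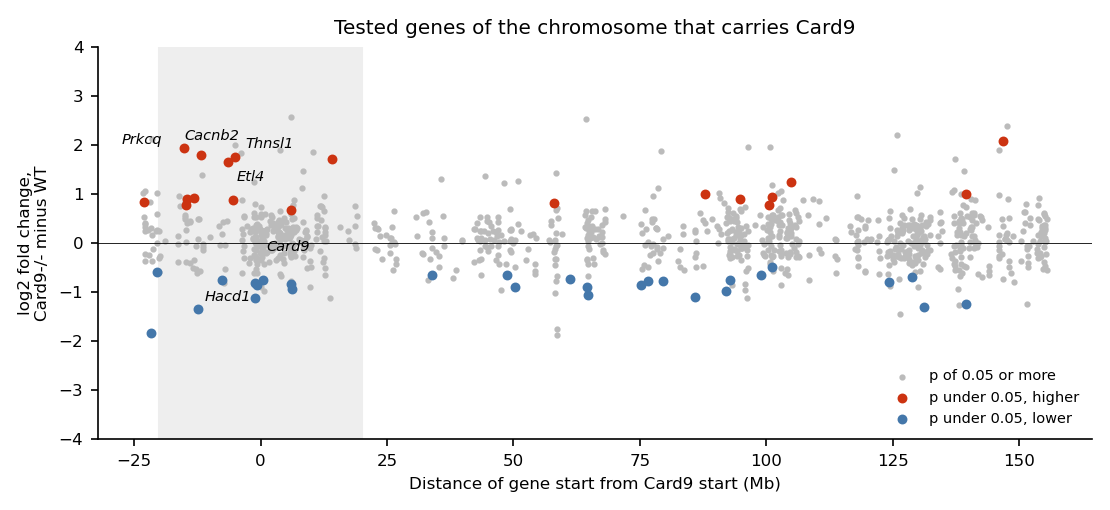
The log2 fold change (Card9-/- minus WT) of each tested gene of chromosome 2 is plotted against the distance of its start from the Card9 start in Mb, with 20 Mb on each side shaded and genes of unadjusted p under 0.05 in colour. Thnsl1, Cacnb2, Prkcq and Etl4 stand between 1.66 and 1.93 within 16 Mb before Card9.

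The genes of the CARD9 pathway were next taken by their roles. Of 17 receptors listed for their signals to CARD9, 16 were lower and 1 was higher in Card9-/- libraries. Their median log2 fold change was -0.40 against 0.11 for all genes. Among them 1 had p under 0.05, a share near the 4.11% of all genes. The median stayed between -0.53 and -0.27 when 1 library at a time was left out. The gene at p under 0.05 was Trem3, a receptor of the TREM family, at 9.95 to 18.3 CPM in WT and 5.76 to 7.11 CPM in Card9-/- libraries, a log2 fold change of -1.23 (SE 0.378). Trem2, the lipid-sensing receptor of microglia, was at 1352 to 1792 CPM in WT and 782 to 1354 CPM in Card9-/- libraries and overlapped, at -0.63 (SE 0.307). Clec4a2, an inhibitory C-type lectin, was at 146 to 187 CPM against 69.4 to 142 CPM and did not overlap. The list holds it although the study describes inhibitory receptors as dampening CARD9 signalling. Of 28 genes of the CARD9 complex, its kinases and the NF-kB proteins, 23 were higher and 5 lower, the median was 0.24 (0.14 without Card9-/- replicate 2 and 0.36 without Card9-/- replicate 4), and 0 had p under 0.05. Rel, an NF-kB subunit, was at 73.1 ± 24.0 CPM in WT and 109 ± 27.1 CPM in Card9-/- libraries (SD, n = 4 each). Nfkbia, which holds NF-kB in the cytosol, was at 536 ± 233 CPM in WT and 331 ± 120 CPM in Card9-/- libraries (SD, n = 4 each). The ranges of both genes overlapped, for Rel only between 92.5 and 95.9 CPM.

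Downstream, 22 cytokine and NF-kB target genes were tested, 7 higher and 15 lower, with a median of -0.14 that ranged from -0.69 to 0.10 when 1 library at a time was left out. Il18 alone had p under 0.05, at 64.9 to 152 CPM in WT and 39.1 to 80.4 CPM in Card9-/- libraries, a log2 fold change of -0.76 (SE 0.344) that was -0.49 without WT replicate 1, the library at 152 CPM. The chemokine gene Cxcl2 was at 98.2 CPM in WT replicate 1 and 399 CPM in Card9-/- replicate 4 and between 14.04 and 23.8 CPM in the other 6 libraries, so the divergent libraries set its fold change. Of 20 interferon-stimulated genes, 7 were higher and 13 lower (median -0.06). Bst2, which tethers viruses to the cell, was at 134 to 406 CPM in WT and 67.9 to 144 CPM in Card9-/- libraries with an overlap, a log2 fold change of -1.16 (SE 0.43). Stat2, a signal transducer of the interferon receptor, was the only one of them apart in the higher direction, at 34.4 to 42.3 CPM against 15.9 to 33.0 CPM.

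Genes that mark microglial states showed small differences. Of 23 homeostatic microglia genes, 8 were higher and 15 lower, the median was -0.24, and 0 had p under 0.05. P2ry12, the purinergic receptor that directs microglial processes, was at 4858 ± 1969 CPM in WT and 3825 ± 1572 CPM in Card9-/- libraries, and Siglech, a sialic acid receptor, was at 2273 ± 250 and 1575 ± 398 CPM (SD, n = 4 each). Of 28 disease-associated microglia genes, 6 were higher and 22 lower, with a median of -0.24, and 3 were lower at p under 0.05 with no overlap, beside 2.74% of all genes lower at that p and 1.6% lower with no overlap. These were Ccl6, a chemokine, at 558 to 1177 against 314 to 557 CPM, Lgals3, galectin-3, at 69.5 to 109 against 45.8 to 58.8 CPM, and Cst7, cystatin F, at 27.2 to 51.6 against 15.7 to 24.5 CPM. Their log2 fold changes were -0.86 (SE 0.333), -0.77 (SE 0.307) and -0.79 (SE 0.32). Of 21 immediate early genes, which respond to handling of the cells as well as to signals, 18 were higher and 3 lower (median 0.33), and 0 had p under 0.05. Egr1 was the only one apart, at 353 to 483 CPM in WT and 555 to 677 CPM in Card9-/- libraries. Of 12 heat shock genes 7 were higher (median 0.01), and of 22 proliferation genes 6 were higher (median -0.16), with 0 at p under 0.05 in both lists. When 1 library at a time was left out, the medians of the disease-associated, homeostatic and immediate early lists kept their sign, at -0.43 to -0.18, -0.39 to -0.07 and 0.17 to 0.51, while those of the interferon, heat shock and proliferation lists crossed 0.

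Among genes of oxidative stress, 17 were tested, 5 higher and 12 lower, and 4 were lower at p under 0.05, beside 2.74% of all genes. The median was -0.13, and it was -0.29 without WT replicate 1 and -0.08 without WT replicate 4. Gpx4, which removes lipid peroxides, was at 217 to 534 CPM in WT and 116 to 188 CPM in Card9-/- libraries, a log2 fold change of -1.09 (SE 0.342). Gpx1, the cytosolic glutathione peroxidase, was at 1271 to 3030 against 525 to 1149 CPM, and Sod2, the mitochondrial superoxide dismutase, was at 66.3 to 102 against 45.5 to 63.1 CPM. These 3 did not overlap, beside 1.6% of all genes lower with no overlap. Cyba, a subunit of the NADPH oxidase, was at 814 to 2523 against 477 to 872 CPM and overlapped. Without WT replicate 1 the log2 fold change of Gpx4 went from -1.09 to -0.78. That of Gpx1 went from -0.999 to -0.61 and that of Cyba from -0.93 to -0.47. Gpx4, Gpx1 and Cyba have 1724, 1441 and 1039 exonic bases and Sod2 has 10008, and length is described further below. Of 14 iron handling genes, 8 were higher and 6 lower (median 0.08, and -0.18 without WT replicate 1). Steap3, a ferrireductase, had 2 to 8 reads in the WT libraries and was at 0.331 to 0.856 CPM there and 1.64 to 2.55 CPM in Card9-/- libraries, a log2 fold change of 1.91 (SE 0.638). The ferritin heavy chain Fth1 was at 3299 ± 1223 CPM in WT and 2079 ± 537 CPM in Card9-/- libraries (SD, n = 4 each), with overlapping ranges. Of 8 MHC class II genes, 2 were higher and 6 lower (median -0.29), with Ciita, their transactivator, higher at a log2 fold change of 0.70 (SE 0.325) and H2-Oa lower at -0.94 (SE 0.43), both at p under 0.05. Without Card9-/- replicate 4 the value of H2-Oa was -0.62.

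The relatives of the leading genes were taken as families. All 8 protein kinase C genes tested had positive fold changes, at a median of 0.35, and only Prkcq had p under 0.05. Prkch was next, at 36.5 ± 16.6 CPM in WT and 59.4 ± 26.6 CPM in Card9-/- libraries (SD, n = 4 each). Of 4 liprin genes and 3 calcium channel beta subunits tested, only Ppfia4 and Cacnb2 had p under 0.05. All 7 CD300 genes tested had negative fold changes, at a median of -0.55, and 2 had p under 0.05. Beside Cd300e this was Cd300c2, at 459 to 1050 CPM in WT and 281 to 543 CPM in Card9-/- libraries, a log2 fold change of -0.86 (SE 0.34). The members of these families were chosen for the leading genes, and their counts are no separate support for them.

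Markers of other cells that CD11b beads or brain tissue can bring in were measured beside these genes. All 10 markers of T or NK cells that passed the filter, of 14 listed, were lower in Card9-/- libraries, with a median log2 fold change of -1.12, and 3 had p under 0.05, beside 2.74% of all genes lower at that p. These were Gzma, Gzmb and Nkg7, the last at 21.7 to 219 CPM in WT and 18.7 to 23.7 CPM in Card9-/- libraries. The log2 fold change of Nkg7 was -2.17 (SE 0.634), and -1.36 without WT replicate 1. The median stayed between -1.38 and -0.99 when 1 library at a time was left out. The summed level of the list was 430, 271, 234 and 82.5 CPM in WT replicates 1 to 4 and 72.1 to 98.8 CPM in Card9-/- libraries, so that WT replicate 4 overlapped with them. Of 13 monocyte markers tested, 10 were lower, and Cd300e, Treml4 and Ly6c2 had p under 0.05, beside the same 2.74%. The median was -0.56, and it reached -1.02 without Card9-/- replicate 4. Their summed level was 361 to 678 CPM in WT and 264 to 467 CPM in Card9-/- libraries. Treml4, a receptor of nonclassical monocytes, was at 7.57 to 37.3 CPM in WT and 5.56 to 10.6 CPM in Card9-/- libraries. No listed T or NK cell or monocyte marker was at 0 in all 8 libraries. In sorted cells, fewer cells of a type and less RNA per cell cannot be told apart, and the part of these cells in the values of Ly6i, Cd300e, S1pr5, Klra1 and Gzma was not tested.

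The remaining marker lists differed mainly by library. Red blood cell markers were at 133 CPM in WT replicate 1 and 60.5 CPM in Card9-/- replicate 4 and at 2.77 to 18.0 CPM elsewhere. Choroid plexus and ependyma markers, of which Tppp3 is one, were at 1630 and 2523 CPM in those 2 libraries, 788 CPM in WT replicate 2 and 25.7 to 220 CPM in the rest. Of the 7 tested, 6 were lower, and Tppp3 alone had p under 0.05. Tppp3 did not follow the summed level of the list. It was at 10.3 CPM in WT replicate 3, where the sum was 25.7 CPM, and at 7.197 CPM in Card9-/- replicate 4. The median of the list was -0.89, but it was 0.33 without WT replicate 2 and -1.70 without Card9-/- replicate 4. Border macrophage markers were at 1345 to 1973 CPM in WT and 1543 to 2197 CPM in Card9-/- libraries, with 5 of 10 lower. Cbr2 alone had p under 0.05, beside 2.74% of all genes lower at that p. It was at 187.9 to 319 CPM in WT and 100.5 to 162 CPM in Card9-/- libraries, with no overlap. Its log2 fold change stayed between -1.02 and -0.68 when 1 library at a time was left out. Neutrophil markers were at 6374 CPM in Card9-/- replicate 4 and 1160 to 3717 CPM in the other libraries. B cell, astrocyte, oligodendrocyte, endothelial and neuron markers had 0 genes at p under 0.05, with medians of -0.28, 0.19, -0.28, -0.24 and 0.55 over 5, 8, 5, 8 and 2 genes tested. When 1 library at a time was left out, the medians of the red blood cell, border macrophage, neutrophil, astrocyte, oligodendrocyte and neuron lists changed sign under at least 1 choice.

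**Figure D4:**
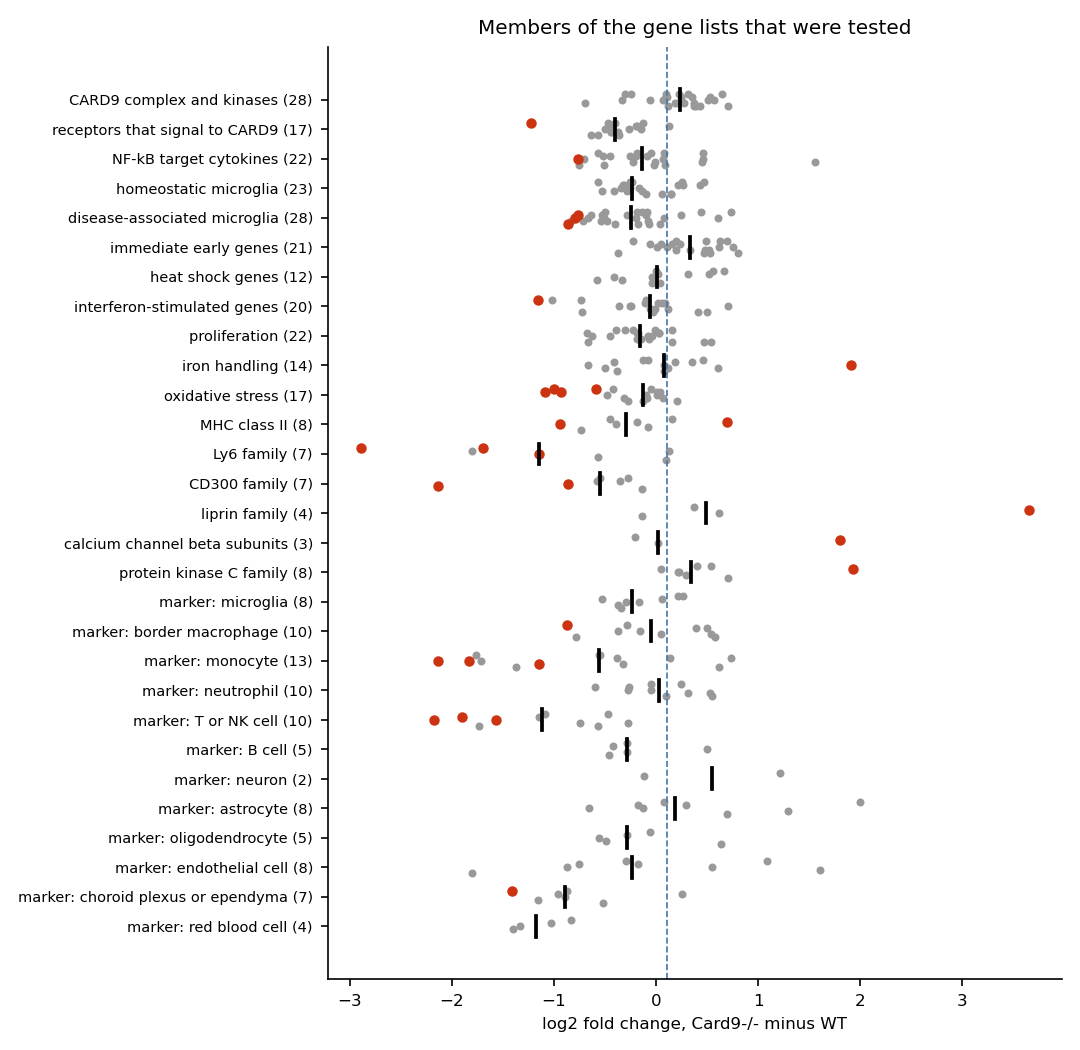
Each row plots the log2 fold change (Card9-/- minus WT) of the tested members of 1 gene list, with their number in brackets, the median as a black bar and members of unadjusted p under 0.05 in red; the dashed line is the median of all genes tested, 0.11. The receptors listed for signals to CARD9, the T or NK cell markers and the CD300 family lie to the left of the line, with 1, 3 and 2 members in red.

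Genes with p under 0.05 that were lower in Card9-/- libraries had a lower median length than all genes tested. The median exonic length, that is the bases covered by exons of any annotated transcript, was 1836 bases for the 398 lower genes, 4974 for the 199 higher genes and 3833 for all genes tested. Among the 3570 shortest genes, 232 were lower and 44 higher at p under 0.05, at a median log2 fold change of -0.11. Among the 3569 longest genes, 11 were lower and 80 higher, at a median of 0.25. The same medians in the 5xFAD pair were -0.07 and 0.27, and without WT replicate 1 and Card9-/- replicate 4 they were -0.33 and 0.27. Within libraries, the slope of log2 CPM per doubling of length, relative to the mean of all 16, was 0.171, 0.292 and 0.133 in Card9-/- replicates 1 to 3, and -0.159 in replicate 4. In WT the slopes were -0.148, 0.055, 0.004 and 0.153. The receptor list, at a median of 2638 bases, and the T or NK cell list, at 1488 bases, were on the short side, and the CARD9 complex and protein kinase C lists, at 6279 and 7171 bases, on the long side. With the slope of each library as a covariate, the medians of these 4 lists were -0.32, -0.90, 0.11 and 0.31. The median of all genes tested was 0.05 in that fit. Of the genes at p under 0.05, 888 were higher and 510 lower. Medians of the oxidative stress, homeostatic and disease-associated lists went from -0.13, -0.24 and -0.24 to -0.38, -0.355 and -0.35. Over the 4 length classes, from shortest to longest, the medians were 0.07, -0.15, 0.03 and 0.17. Ly6i (1156 bases) and Hebp1 (3711 bases) were then called at log2 fold changes of -2.63 and -2.67 (edgeR FDR = 0.0428 for both), together with the gene model Gm3716. The medians of the first 4 lists thus moved toward 0 with this covariate, and those of the others named moved away from it. The part of length in the fold changes of the lists was not tested beyond this fit.

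**Figure D5:**
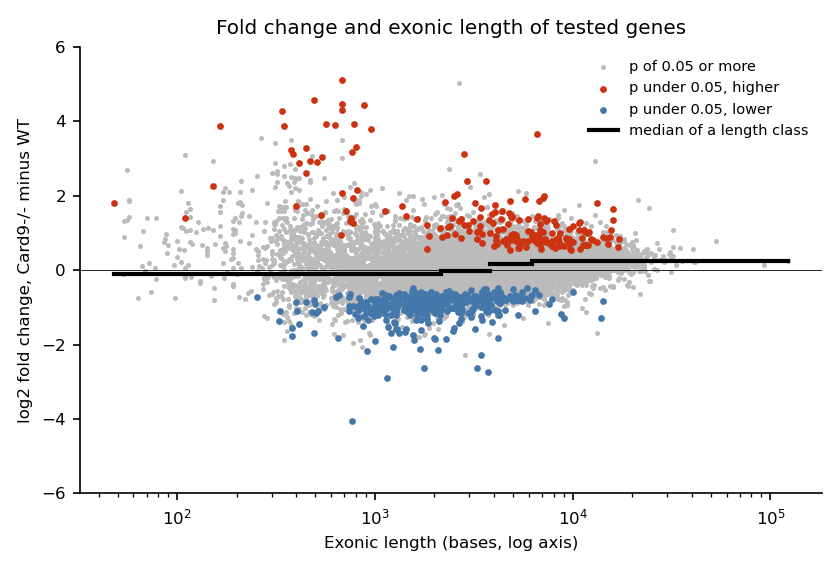
The log2 fold change (Card9-/- minus WT) of each tested gene with an annotated position is plotted against its exonic length on a log axis, with genes of unadjusted p under 0.05 in colour and the median of each of 4 length classes as a black bar. The bars step up from -0.11 in the shortest to 0.25 in the longest class, and 1 gene lies outside the range shown.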

How the data were processed

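Bulk RNA-seq was analysed for 16 libraries of CD11b+ brain cells, 4 per genotype. The deposited values are whole-number read counts per gene, made by the authors with HISAT2 on the mm10 mouse genome, SAMtools filtering and HTSeq; versions and the strand setting are not given in the sources used here. From these counts, 14513 of 55385 genes passed edgeR's filterByExpr (minimum count 10). All 16 libraries were fitted in edgeR 4.0.16 (R 4.3.3) with TMM scaling and the quasi-likelihood test, with Benjamini-Hochberg adjustment and an FDR threshold of 0.1. Alternatives used DESeq2 1.42.0, limma 3.58.1 and sva 3.50.0, and scripts were tested on simulated data. PCs used 500 genes. Each total gives the library's depth, and intervals from the fits cover only the spread between libraries, since the labels do not say whether each came from 1 animal, so that p-values may measure technical spread.

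Positions and exon lengths came from GENCODE release M21 on mm10, found for 14276 tested genes; 737 altered names were restored. The named genes were Card9, 8 genes that the study text names for this comparison, the 12 genes of lowest p in each direction, up to 4 members of lowest p per list, and genes within 20 Mb of Card9 with p under 0.05. The libraries compared and the gene lists were chosen with earlier results of these data known, and the 8 genes come from these same libraries, so they are no independent evidence. A marker gene that the rule would name is not reported here. The labels do not say whether replicate numbers pair the libraries, so the main fit used no block. Leaving out both divergent libraries, the threshold on the log2 fold change and the length covariate were chosen after seeing the data.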

Additional observations from a re-analysis of the deposited data

Results flagged for a closer look

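In 200 groups of 4 libraries, 21 held 1 library whose distance from the nearest other exceeded Dixon's 95% critical value, a test that marks about 1 group in 20 by chance. Card9-/- replicate 4 was that library for Hebp1 (15.05 CPM against 4.803 to 6.46), Tppp3 (7.197 against 3.85 to 4.32), Rel (149.2 against 92.5 to 98.8), Plcg2 (405.3 against 145 to 181), Nfkbid (42.53 against 68.2 to 73.4), Gzmb (2.29 against 5.81 to 5.92) and Cxcl2 (398.8 against 19.5 to 23.4). It also stood apart in summed CPM of neutrophil markers (6374 against 1214 to 1288), neuron markers (44.49 against 3.24 to 6.93), endothelial markers (279 against 42.8 to 63.4) and choroid plexus or ependyma markers (2523 against 55.0 to 220), and on PC1 (-72.28 against 17.3 to 29.3).

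WT replicate 1 stood apart for Cxcl2 (98.24 CPM against 14.04 to 23.8), Gpx1 (3030 against 1271 to 1458), summed NF-kB target cytokines (7958 against 2009 to 2706), summed red blood cell markers (133.3 against 6.31 to 18.0) and the percentage of reads on ribosomal protein genes (4.085 against 1.40 to 1.78). WT replicate 3 was low for Nfkbid (35.3 CPM against 49.1 to 51.9) and Egr1 (353.1 against 468 to 483), WT replicate 4 was high for Ciita (9.736 against 5.56 to 6.16), and Card9-/- replicate 2 was low for Clec4a2 (69.37 against 140.5 to 142.2).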

How the results depend on the processing

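Against 0 genes called between Card9-/- and WT libraries, 8 of 22 alternatives called at least 1. There were 2 genes with no filter on low counts, 5 with DESeq2 on 16 libraries and 8 with DESeq2 on 8 libraries. The last of these fits also gave 8 when an absolute log2 fold change over 1.5 was required. There were 9 with 1 surrogate variable, 3 with the length covariate, 1 without WT replicate 1 and Card9-/- replicate 4, and 4195 with voom quality weights. Counts were 0 in every fit that left out 1 library. For the interaction the counts were 1 with DESeq2 on 16 libraries, 3 with voom quality weights and 0 without any 1 library. Genes whose ranges did not overlap numbered 386 of 14513 in the main fit and 584 of 29950 with no filter, a smaller share. They numbered 332 of 14513 with DESeq2 size factors. With at least 10 counts required in every library they numbered 277 of 10243. The adjusted exact permutation p of PC1 ranged from 0.229 to 1 and of PC2 from 0.0571 to 0.229 when 1 library was left out, a design in which 1 component alone cannot fall under 0.05. With voom quality weights the log2 fold change of S100b (-1.265 against 2.0) reversed, and the cause was not tested.

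Deviations of the same-numbered libraries from their group means correlated at -0.519, 0.282, 0.488 and -0.545. WT replicate 1 and Card9-/- replicate 4 correlated at 0.747, so the divergent libraries weighed on these values. The correlations therefore cannot show or exclude a pairing by replicate number. With the replicate number as a block, 0 genes were called, at a lowest FDR of 0.3553. Depth limits genes with few reads, such as Steap3, 5430437J10Rik and A930002C04Rik.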
